A study of Homo sapiens with 3 samples.

Results

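The genes described here are 36 members of the unfolded protein response (UPR) and of the linked ATF4 response. They were given as a list of gene names, with no rule on their values but chosen with earlier results of these data known. All 36 were found by symbol among the 29689 gene symbols of the expression table. They fall into 4 groups, kept apart throughout, namely 3 sensors or transcription factors of the UPR, 9 genes of the ATF4 regulator group, 8 genes of the amino acid branch and 16 genes of the chaperone branch. The last comprises 13 ER chaperones or folding factors and 3 factors of ER-associated degradation (ERAD). RNAseq was performed on 3 xenograft tumors of SUM-149, a basal-like triple-negative breast cancer (TNBC) cell line, which had been mixed with Matrigel and implanted into the mammary fat pads of female Nu/Nu mice, nude mice without mature T cells. The libraries, 1 each, came from a vehicle-treated tumor, a tumor given the CDK2 inhibitor dinaciclib (CDK2i) and a tumor given the EZH2 inhibitor EPZ6438 (EZH2i), both inhibitors for 10 days. The legend on SUM-149 xenografts in the study names GSK343 as the EZH2i, and the name in the sample labels is used here. All values come from 1 cell line and 1 tumor per condition, so an effect of treatment and a difference between single tumors or libraries cannot be told apart, and no p-value was computed. The comparisons ask how the tumor transcriptome differed when CDK2 or EZH2 was blocked.

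Proteins that enter the endoplasmic reticulum (ER) are folded there by chaperones and oxidoreductases, and those that fail to fold are returned to the cytosol and degraded. When unfolded proteins build up, the ER membrane proteins ERN1 (also called IRE1), ATF6 and the kinase PERK signal to the nucleus. ERN1 splices the XBP1 mRNA so that it encodes an active transcription factor, ATF6 is cut to release one, and PERK slows translation in general while translation of ATF4 goes up. XBP1 and ATF6 mainly drive genes of chaperones and ERAD, whereas ATF4 acts on genes for amino acid uptake and synthesis together with the stress regulators DDIT3, TRIB3 and others. ATF4 is also induced without ER stress, for example by lack of amino acids. Secretory epithelia and the tumors derived from them carry a high load of ER proteins.

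The elements through which these genes are read differ between the branches, and the promoters of 4 members are shown because the results below turn on these genes. XBP1 and HERPUD1 had the largest decreases in CDK2i among members above the expression minimum, HSPA5 encodes the main ER chaperone and stood close to vehicle there, and DDIT3 had the largest difference. Each line gives the 250 bases before the RefSeq start, 5′ to 3′ on the strand of the gene, and each sequence matched GRCh37 exactly once. XBP1 is at chr22:29196558-29196807 on the minus strand, HERPUD1 at chr16:56965804-56966053 on the plus strand, HSPA5 at chr9:128003623-128003872 on the minus strand and DDIT3 at chr12:57914298-57914547 on the minus strand, inside the annotated span of the gene. Capitals mark an ER stress response element (ERSE, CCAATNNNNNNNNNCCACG) or its second form (ERSE-II, ATTGGNCCACG), both searched on either strand. The DDIT3 window held neither in these exact letters. It holds a stretch, left in lower case, that differs from ERSE in the last letter alone.
XBP1: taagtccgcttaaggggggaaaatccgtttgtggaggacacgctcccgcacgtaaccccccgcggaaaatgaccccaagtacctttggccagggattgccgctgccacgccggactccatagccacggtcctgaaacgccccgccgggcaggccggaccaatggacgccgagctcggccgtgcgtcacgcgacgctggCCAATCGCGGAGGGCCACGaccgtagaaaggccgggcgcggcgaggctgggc
HERPUD1: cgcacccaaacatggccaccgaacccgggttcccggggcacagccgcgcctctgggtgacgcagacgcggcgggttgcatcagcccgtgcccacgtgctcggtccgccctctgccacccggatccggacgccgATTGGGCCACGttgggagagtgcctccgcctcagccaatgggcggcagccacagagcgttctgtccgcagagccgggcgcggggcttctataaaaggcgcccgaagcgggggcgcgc
HSPA5: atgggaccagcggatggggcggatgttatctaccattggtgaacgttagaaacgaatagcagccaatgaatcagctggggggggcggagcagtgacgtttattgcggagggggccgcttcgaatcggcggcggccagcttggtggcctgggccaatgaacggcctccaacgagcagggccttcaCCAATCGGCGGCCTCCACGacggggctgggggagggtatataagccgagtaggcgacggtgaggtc
DDIT3: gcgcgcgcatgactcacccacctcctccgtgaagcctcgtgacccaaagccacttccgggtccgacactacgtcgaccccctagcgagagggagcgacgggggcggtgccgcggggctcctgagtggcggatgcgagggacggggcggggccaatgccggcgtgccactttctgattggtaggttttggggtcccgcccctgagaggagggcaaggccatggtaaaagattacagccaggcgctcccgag

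ERSE was found in 26 of 35116 RefSeq promoters of this length (0.074%) and ERSE-II in 18 (0.0513%). Promoters were matched for 33 members, and PSPH, SHMT2 and PDIA3 are named only. The 35116 are all promoters listed, while for a member only the first listed promoter was searched. ERSE was found in 6 of the 33 members, XBP1, HSPA5, HSP90B1, CALR, CANX and CRELD2, and ERSE-II in 3, HYOU1, SDF2L1 and HERPUD1. These counts hold for the exact letters only. All 9 belong to the chaperone branch except XBP1. The C/EBP-ATF response element (CARE, TGATGNAAT, either strand), which ATF4 is known to bind, was found in 312 promoters (0.888%) and in 0 of the 33. The count of 0 holds for these exact letters only, and forms with another last letter were not searched for. The HERPUD1 window above, read on its opposite strand, holds a stretch that differs from this pattern in the last letter alone, left in lower case. A match describes the letters in this window and is not evidence of a site in use, and the absence of a match says nothing about ATF4. In XBP1 the element lay at positions −52 to −34 from the start, in HSPA5 at −66 to −48 and in HERPUD1 at −117 to −107. The elements of the other carriers are shown because they give the same outer letters around different inner bases, with the element in capitals and 5 flanking bases on each side, each written on the strand on which the element reads and with its position from the start.
HSP90B1 (−194 to −176): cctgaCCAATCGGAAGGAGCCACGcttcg
HSP90B1 (−89 to −71): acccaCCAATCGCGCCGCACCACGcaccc
CANX (−151 to −133): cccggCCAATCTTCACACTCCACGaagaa
CALR (−225 to −207): accgaCCAATGATGGTCGACCACGcgtgg
CRELD2 (−80 to −62): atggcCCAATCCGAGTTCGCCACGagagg
HYOU1 (−185 to −175): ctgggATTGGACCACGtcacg
HYOU1 (−79 to −69): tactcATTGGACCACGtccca
SDF2L1 (−188 to −178): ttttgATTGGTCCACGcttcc

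The library sizes could be recovered from the steps of the low FPKM values (FPKM, fragment numbers scaled by the length of the gene and the depth of the library) and came to 16.8, 19.1 and 17.5 M fragments, in the order vehicle, CDK2i, EZH2i. Numbers of fragments given below are approximate, rest on the length of the longest coding transcript, and yield 95% intervals that cover counting error only. None of the 36 genes was listed at an FPKM of 0, and 32 had a mean log2 FPKM above 1. The 8 epithelial tumor markers were above log2 FPKM 3 in all tumors, with summed values of 6346, 15282 and 6154 FPKM in vehicle, CDK2i and EZH2i. The markers of other cell types were low, with sums of 8.41, 8.14 and 3.59 FPKM for 6 macrophage markers, 24.4, 38.3 and 28.8 for 6 fibroblast markers and 0.833, 0.73 and 0.466 for the 3 of 5 endothelial markers in the table. AIF1 and CD68 were listed at 0 in both treated tumors and CD163 in vehicle and EZH2i. Of the markers of plasma and B cells, which are rich in ER chaperones, 4 of 7 were in the table and summed to 241, 395 and 270 FPKM, and only 1 of them, which epithelia also express (SDC1), was above the expression minimum, while TNFRSF17 was listed at 0 in all tumors. The host was a mouse and reads were aligned to the human genome, so these sums do not measure the content of host cells. The part of cell composition in the results below was not tested. In bulk tumors, fewer cells of a type and less RNA per cell cannot be told apart.

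A gene was called higher or lower when its FPKM differed by more than 2-fold and reached log2 FPKM 3 (8 FPKM) in the tumor with the higher level. In CDK2i against vehicle 25 members could pass, of which 0 were called higher and 3 lower, XBP1, TRIB3 and HERPUD1. This was 12% of those 25, against 8.07% of the 6632 genes that could pass, and 3.27% of these genes were called higher. In EZH2i against vehicle 27 members could pass, and DNAJC3 alone was called higher, 3.7% of them against 8.93% of 7414 genes. No member was called lower there, while 4.42% of genes were. Between the inhibitors 26 members could pass, and XBP1, TRIB3 and HERPUD1 were called higher in EZH2i than in CDK2i, 11.5% against 17.5% of 7394 genes, with 0 members called lower against 6.52%. Set against these backgrounds, the counts are no result about the list as a whole, and what follows describes single genes and groups.

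**Figure D1:**
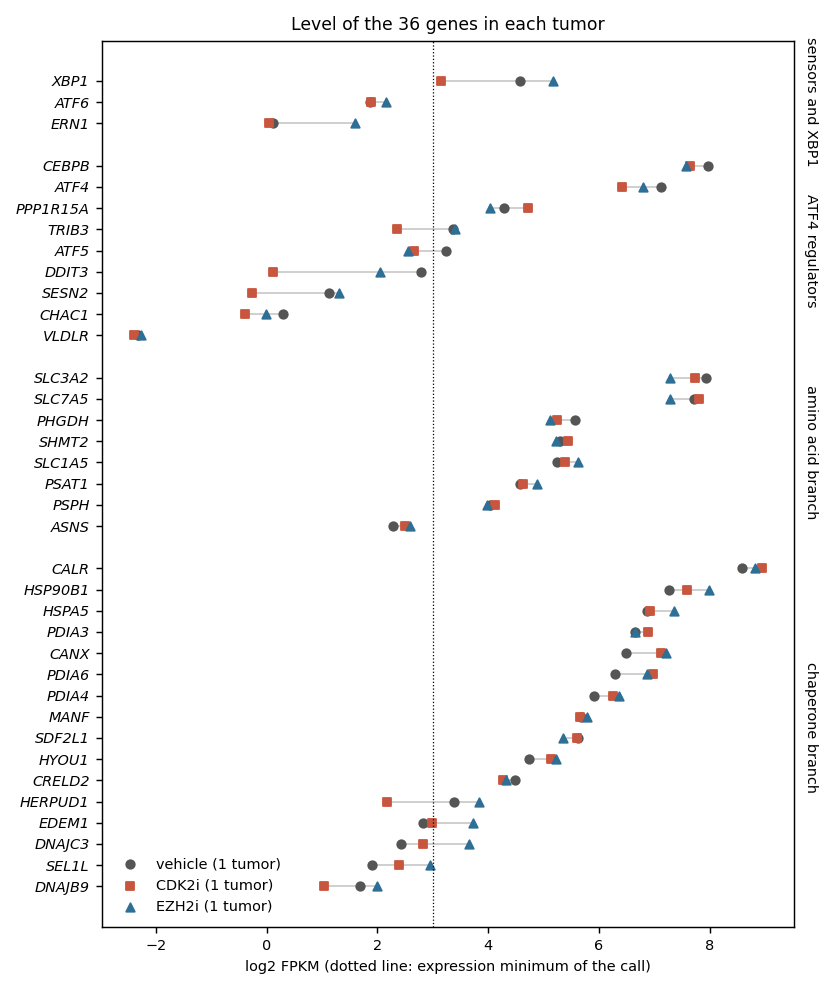
Level of each of the 36 genes in log2 FPKM (horizontal axis) in the vehicle (circle), CDK2i (square) and EZH2i (triangle) tumor, 1 library each, with a gray line over the range and a dotted line at the expression minimum of 3. For most genes the points lie close together, while XBP1, TRIB3, DDIT3, SESN2 and HERPUD1 have the CDK2i square far to the left and ERN1, DNAJC3, EDEM1 and SEL1L have the EZH2i triangle to the right.

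The branches parted in CDK2i. Of the 9 genes of the ATF4 regulator group, 8 were below vehicle, with a median log2 change of −0.68 (range −2.66 to 0.43). The 8 genes of the amino acid branch lay between −0.30 and 0.19 with a median of 0.08, which became negative when the tumors were scaled to 1 FPKM sum that left out genes of ribosomal proteins and of the mitochondrial genome. The 16 genes of the chaperone branch had a median of 0.28, 11 of them higher. Over the 11109 expressed genes the median was −0.11, with 4659 higher and 6441 lower. In EZH2i the medians were −0.31 for the ATF4 regulator group (0.09 once a trend over GC content and length was removed), −0.07 for the amino acid branch (0.17 with equal summed FPKM) and 0.48 for the chaperone branch, beside 0.19 over all expressed genes. Both comparisons share the vehicle library, so a value of a gene in that library enters both.

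Members were also set against a stand-in for replicate error, the SD of the difference between EZH2i and CDK2i over the 200 genes nearest in mean expression, called the spread of a gene. It holds drug effects as well as noise. The spread of the members ran from 0.61 for SHMT2 and SDF2L1 to 1.60 for VLDLR. In CDK2i 8 of the 36 differences from vehicle were beyond it (22.2%, against 22.1% of the 20031 genes with no value at 0), 6 lower (XBP1, ATF4, DDIT3, TRIB3, SESN2 and HERPUD1) and 2 higher (CANX and PDIA6). In EZH2i 5 were beyond it (13.9% against 21.5%), all higher (ERN1, DNAJC3, CANX, EDEM1 and SEL1L). Between EZH2i and CDK2i 7 were higher beyond it (ERN1, XBP1, DDIT3, TRIB3, SESN2, DNAJC3 and HERPUD1) and PPP1R15A was lower (22.2% of members against 35.4% of genes). Differences beyond the spread were thus no more frequent among the members than among other genes, and the spread serves below only to place single values.

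**Figure D2:**
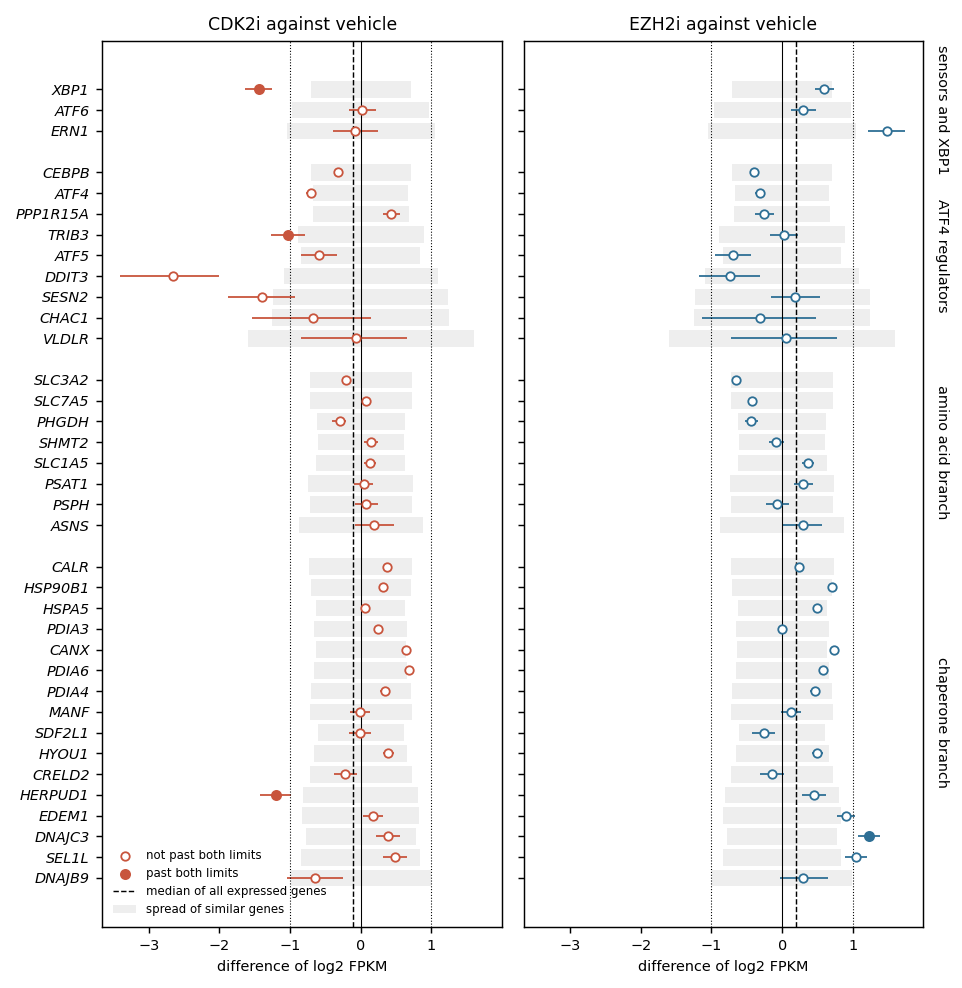
Difference of log2 FPKM from the vehicle tumor (horizontal axis) for each gene in CDK2i (left) and EZH2i (right), with 95% counting intervals as lines, the spread of similar genes as gray bars, dotted lines at a 2-fold difference and a dashed line at the median of all expressed genes. Filled points mark the genes past both the fold and the expression limit, XBP1, TRIB3 and HERPUD1 on the left and DNAJC3 on the right.

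Among the sensors and transcription factors, XBP1 separated the tumors most. XBP1 (chromosome 22, 29190543 to 29196585, minus strand), the transcription factor whose mRNA is spliced by ERN1, was at 23.9 FPKM in vehicle, 8.80 with CDK2i and 36.1 with EZH2i, from about 741, 311 and 1171 fragments. CDK2i was lowest and EZH2i highest. It fell in CDK2i by a factor of 2.72 (log2 change −1.44, interval −1.64 to −1.25) and was 1.51-fold above vehicle in EZH2i (0.59, 0.46 to 0.73), which was within its spread of 0.71. This left EZH2i 4.10-fold above CDK2i (2.04, 1.86 to 2.22), the largest difference between the inhibitors among the members, and it was beyond the spread. With the trend over GC content and length removed, the change from vehicle in EZH2i was 0.79, past the spread of 0.71. The values are per gene and do not separate spliced from unspliced XBP1 mRNA.

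ERN1 (chromosome 17, 62116440 to 62208179, minus strand), the kinase and endonuclease that splices XBP1, was at 1.08 FPKM in vehicle, 1.03 with CDK2i and 3.01 with EZH2i. The EZH2i tumor stood apart, at 2.78 times the vehicle level (log2 change 1.48, interval 1.21 to 1.74), while CDK2i was at −0.08 (−0.39 to 0.24). The values rested on about 164, 177 and 476 fragments and exceeded the spread of 1.05 in EZH2i, but the gene stayed below the expression minimum and could not be called. ATF6, the sensor that becomes a transcription factor once cut in the Golgi, was at 3.63, 3.68 and 4.45 FPKM, and neither change (0.02 and 0.30) left its spread of 0.97. All 3 genes had their highest value in EZH2i, and in CDK2i XBP1 was low while ERN1 and ATF6 were close to vehicle. With the trend over GC content and length removed, ATF6 was at −0.27 in EZH2i and 0.01 in CDK2i. Its place in EZH2i thus depended on this correction.

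In the ATF4 regulator group, ATF4 itself was among the most expressed members. ATF4 (chromosome 22, 39915700 to 39918688, plus strand), the transcription factor of the amino acid and stress response, was at 139 FPKM in vehicle, 84.9 with CDK2i and 111 with EZH2i. Both treated tumors were lower, CDK2i by 0.71 on the log2 scale (interval of the change −0.77 to −0.64), just beyond the spread of 0.67, and EZH2i by less (−0.32). The difference in CDK2i was within the spread with the trend over GC content and length removed (−0.58) or after centring (−0.53), and that in EZH2i turned to 0.09 with the trend removed. ATF4 protein is set largely by translation, which mRNA levels do not show. ATF5, a relative of ATF4 that is also regulated by translation, was at 9.47, 6.31 and 5.85 FPKM, with changes (−0.59 and −0.70) inside its spread of 0.84. CEBPB, a bZIP factor that pairs with ATF4, was at 251, 201 and 190 FPKM, changes of −0.32 and −0.40, also within the spread (0.71). Its transcript is rich in G and C (66.2%), and with a trend over GC content and length removed the EZH2i value was 0.31.

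The stress effectors downstream of ATF4 included the largest difference in CDK2i. DDIT3 (chromosome 12, 57910371 to 57915520, minus strand), which encodes CHOP, a transcription factor tied to cell death in prolonged ER stress, was at 6.88 FPKM in vehicle, 1.09 with CDK2i and 4.12 with EZH2i. The CDK2i tumor was 6.32-fold lower than vehicle (log2 change −2.66, interval −3.40 to −2.01), on about 22 fragments against 123, and this was the largest difference of any member, beyond the spread of 1.09. In EZH2i the change was −0.74 (−1.17 to −0.32), within it. The vehicle value of log2 FPKM 2.78 was just below the minimum of 3, so DDIT3 could not be called. Its exons share 355 of 1307 bases with MARS on the opposite strand, and whether counting used strand is not given in the sources used here. MARS, a tRNA synthetase gene, was at log2 FPKM 4.74, 4.79 and 5.03, changes of 0.05 and 0.30.

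TRIB3 (chromosome 20, 343479 to 378203, plus strand), a pseudokinase induced by ATF4 and DDIT3, was at 10.3 FPKM in vehicle, 5.08 with CDK2i and 10.5 with EZH2i. It was low in CDK2i alone. The gene fell there by a factor of 2.04 (log2 change −1.03, interval −1.27 to −0.79, spread 0.89), just past the fold limit, and it lost the call with a pseudocount of 1, after centring on the median expressed gene and with equal summed FPKM. SESN2 (chromosome 1, 28586029 to 28609002, plus strand), which encodes the leucine sensor sestrin 2, was at 2.19, 0.832 and 2.48 FPKM, on about 127, 55 and 151 fragments. It had the same order as TRIB3 with a change of −1.40 in CDK2i (−1.88 to −0.93), beyond its spread of 1.24, and of 0.18 in EZH2i, but lay below the minimum.

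The remaining regulators did not follow that order or were too low to judge. PPP1R15A, which encodes GADD34, the phosphatase subunit that restores translation, was at 19.4 FPKM in vehicle, 26.2 with CDK2i and 16.3 with EZH2i. It was the 1 gene of the group above vehicle in CDK2i (0.43, within the spread of 0.68), and its difference of EZH2i from CDK2i was −0.68, just past the spread. CHAC1, an enzyme that degrades glutathione, was at 1.23, 0.766 and 0.992 FPKM on 31, 22 and 26 fragments, and the counting intervals of both changes held 0. VLDLR, a lipoprotein receptor induced by ATF4, was at 0.199, 0.189 and 0.207 FPKM, the lowest member in every tumor, so a difference was not detectable at this depth.

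Values of early-response genes moved with the results in CDK2i. Of 20 such genes, which include factors induced within minutes of stimulation or handling, 18 could pass and 15 were called higher in CDK2i. Of all genes that could pass, 3.27% were called higher. The median log2 change of the 20 genes was 2.28, beside −0.11 over all expressed genes. Their summed levels were 603 FPKM in vehicle, 5174 with CDK2i and 697 with EZH2i. Their part in the differences of XBP1, DDIT3, TRIB3 and PPP1R15A was not tested.

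In the amino acid branch every difference from vehicle in CDK2i was within the spread. ASNS, asparagine synthetase and a classical ATF4 target, was at 4.90 FPKM in vehicle, 5.61 with CDK2i and 5.98 with EZH2i, and both changes (0.19 and 0.29) were within the spread of 0.88. The enzymes of serine synthesis did not move in 1 direction. PHGDH, the first of them, was at 47.0, 38.1 and 34.7 FPKM, PSAT1, the second, at 23.9, 24.6 and 29.4, and PSPH, the last, at 16.4, 17.4 and 15.7. Their changes lay between −0.30 and 0.08 in CDK2i and between −0.44 and 0.30 in EZH2i. PSPHP1, a pseudogene of PSPH that could share its reads, was listed at log2 FPKM 6.08, 5.51 and 5.39, so the value of PSPH is uncertain. SHMT2, the mitochondrial enzyme that turns serine into glycine, was at 39.3, 43.3 and 37.2 FPKM.

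The transporters of this branch were among the most expressed members. SLC7A5 and SLC3A2, the light and heavy chains of the leucine carrier LAT1, were at 211 and 246 FPKM in vehicle, 223 and 212 in CDK2i, and 157 and 156 in EZH2i. Both chains were lowest in EZH2i, with changes of −0.43 and −0.65 that were within their spread of 0.72. With the trend over GC content and length removed these were −0.17 and −0.28. SLC1A5, the glutamine carrier, was highest in EZH2i, at 38.1, 41.6 and 49.1 FPKM, changes of 0.13 and 0.37 (0.79 in EZH2i with the trend removed). SLC7A5P1, a pseudogene of SLC7A5, was listed at no more than log2 FPKM 2.91. None of the 8 genes was called in any comparison, and no difference of the branch from vehicle was beyond the spread in the values as deposited. In EZH2i this depended on the setting. SLC1A5 was past its spread of 0.63 with the trend removed. After centring on the median expressed gene, SLC3A2 (−0.90, spread 0.72) and PHGDH (−0.69, spread 0.62) were beyond theirs. Summed over the branch, the level was 626 FPKM in vehicle, 606 with CDK2i and 485 with EZH2i.

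In the chaperone branch the summed level was 1160 FPKM in vehicle, 1448 with CDK2i and 1522 with EZH2i, or 0.242%, 0.335% and 0.376% of all FPKM. Most of it came from a few genes that were each modestly above vehicle. CALR, the calcium-binding lectin calreticulin and the most expressed of all members in each tumor, was at 382, 495 and 452 FPKM. HSP90B1 (GRP94), the HSP90 of the ER, was at 154, 192 and 252 FPKM. HSPA5 (BiP; chromosome 9, 127997132 to 128003661, minus strand), the HSP70 chaperone that holds the sensors inactive, was at 116, 121 and 164 FPKM, so that CDK2i was at 0.06 (interval 0.02 to 0.11) and EZH2i at 0.49 (0.45 to 0.53), both within the spread of 0.63. The intervals of these abundant genes are narrow because they count fragments only, and the spread is the wider error.

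CANX (chromosome 5, 179105629 to 179158642, plus strand), which encodes calnexin, the membrane lectin chaperone, was at 89.3 FPKM in vehicle, 139 with CDK2i and 148 with EZH2i. Both treated tumors were higher, by 0.64 and 0.73, just past the spread (also 0.64 after rounding) in CDK2i and beyond it in EZH2i, and neither reached 2-fold. In EZH2i the difference was 0.25 with the trend over GC content and length removed and 0.48 after centring, both within the spread. Among the protein disulfide isomerases, PDIA6 was at 78.1, 125 and 117 FPKM (changes of 0.68 and 0.58, spread 0.66). PDIA4 was at 60.2, 75.9 and 82.9 FPKM and PDIA3, which works with the lectin chaperones, at 101, 119 and 101. PDIA6 thus was the isomerase farthest from vehicle. HYOU1 (GRP170), an exchange factor of BiP, was at 26.6, 34.9 and 37.6 FPKM, with changes of 0.39 and 0.50.

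DNAJC3 (chromosome 13, 96329393 to 96447242, plus strand) encodes p58IPK, a cochaperone of BiP and inhibitor of PERK. It was at 5.38 FPKM in vehicle, 7.05 with CDK2i and 12.6 with EZH2i, from about 505, 754 and 1235 fragments. In EZH2i it rose by a factor of 2.34 (log2 change 1.23, interval 1.08 to 1.38, spread 0.78), and in CDK2i it was at 0.39 (0.22 to 0.55). Its transcript is poor in G and C (39.9%), and with the trend over GC content and length removed the EZH2i change was 0.70, under 2-fold. DNAJB9 (ERdj4), a cochaperone whose gene is a known XBP1 target, was at 3.23, 2.06 and 3.97 FPKM, the same order as XBP1, but neither change (−0.65 and 0.30) left its spread of 0.99.

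The small soluble factors of the branch differed little between tumors. SDF2L1, a partner of the BiP cochaperones, was at 49.2 FPKM in vehicle, 49.0 with CDK2i and 41.2 with EZH2i. CRELD2, a secreted ER stress protein, was at 22.3, 19.2 and 20.0 FPKM, and MANF, a secreted cofactor of BiP, at 50.8, 50.4 and 55.4. Their changes lay between −0.26 and 0.12, and none was beyond the spread. The median over all 13 folding factors was 0.32 for CDK2i and 0.46 for EZH2i. With the trend over GC content and length removed, SDF2L1, CRELD2 and MANF were at 0.67, 0.47 and 0.53 in EZH2i, so that their place among the chaperones there depended on this correction.

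The ERAD genes were all above vehicle in EZH2i and did not share a direction in CDK2i. HERPUD1 (chromosome 16, 56966054 to 56978776, plus strand), a membrane protein of the degradation complex, was at 10.5 FPKM in vehicle, 4.54 with CDK2i and 14.3 with EZH2i. It fell in CDK2i by a factor of 2.30 (log2 change −1.20, interval −1.43 to −0.98, spread 0.81) and stood at 0.45 (0.28 to 0.62) in EZH2i, 3.14-fold above CDK2i (1.65, 1.44 to 1.87). The order of its levels was that of XBP1, which most of the chaperone branch did not share, since 11 of its 16 genes were above vehicle in CDK2i. EDEM1, which directs misfolded glycoproteins to degradation, was at 7.06, 7.93 and 13.2 FPKM, and SEL1L, the scaffold of the HRD1 ligase, at 3.74, 5.24 and 7.72. Both were highest in EZH2i, with changes of 0.90 (0.77 to 1.03) and 1.04 (0.89 to 1.20) beyond their spreads of 0.83 and 0.84. EDEM1 was just under the fold limit, and SEL1L passed it but at log2 FPKM 2.95 was just under the expression minimum. With equal summed FPKM both were called higher in EZH2i, and with the trend over GC content and length removed their changes were 0.50 and 0.42.

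The change in EZH2i ran with base composition, in the members as in the rest of the table. Across the 36 members, as a description over genes, the Spearman correlation of the change with transcript GC content was −0.60, against −0.57 over 10287 expressed genes, all read from the same pair of libraries. In CDK2i the values were −0.37 and 0.04. The 10 members under 45% GC had a median change of 0.30 in EZH2i, 9 of them higher, while the 15 members over 55% GC had −0.26, 11 of them lower. All expressed genes in these classes had medians of 0.60 and −0.22. The branches differ in this property, with median GC contents of 46.0% for the chaperone branch, 56.8% for the amino acid branch and 59.6% for the ATF4 regulator group. With the trend over GC content and length removed, the branch medians in EZH2i were 0.49, 0.10 and 0.09 beside 0.22 over all expressed genes, and in CDK2i 0.37, 0.16 and −0.58 beside −0.04. Removing the trend left XBP1 at −1.26 and HERPUD1 at −1.06 in CDK2i, DDIT3 at −2.46 and SESN2 at −1.36, and ERN1 at 1.19 in EZH2i. Other EZH2i values moved more with this correction, among them ATF5 from −0.70 to −0.18, DDIT3 from −0.74 to −0.38, TRIB3 from 0.02 to 0.53 and HSPA5 from 0.49 to 0.27.

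**Figure D3:**
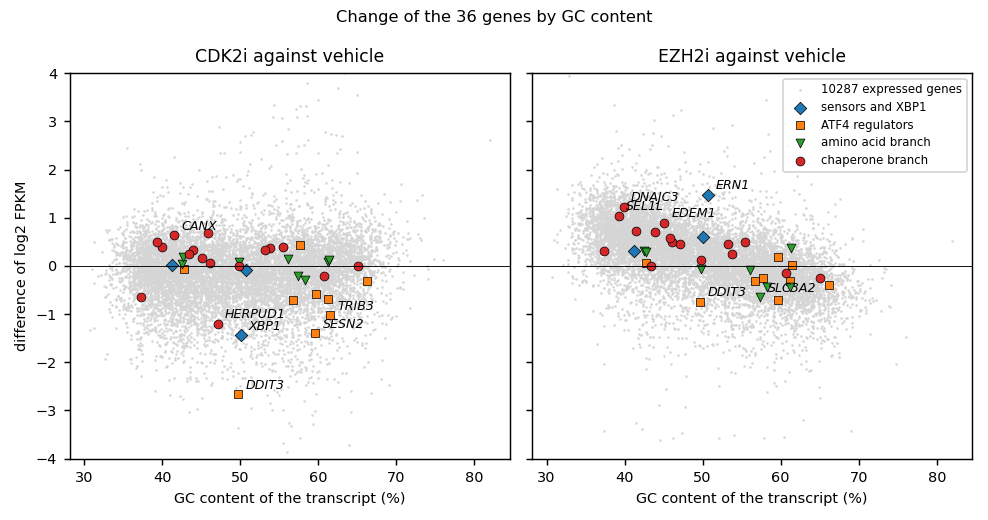
Difference of log2 FPKM from vehicle (vertical axis) against the GC content of the transcript in percent (horizontal axis) for CDK2i (left) and EZH2i (right), with 10287 expressed genes as gray dots and the 36 members by group. In EZH2i members and other genes slope downward together (Spearman −0.60 and −0.57). In CDK2i, where the values are −0.37 and 0.04, the low values of XBP1, HERPUD1 and DDIT3 sit at middle GC content. Those of SESN2 and TRIB3 sit at 59.6% and 61.5%.

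Beside the elements printed above, the 9 members with ERSE or ERSE-II had a median of 0.06 for the change with CDK2i, 5 higher and 4 lower, and of 0.49 with EZH2i, 7 higher and 2 lower. The 24 members without either had medians of −0.04 and 0.15. Carriers of the element thus held both the low values of XBP1 and HERPUD1 and the high values of CANX in CDK2i. The split rests on exact letters in the window used for each gene. DDIT3, whose window holds the near match to ERSE described above, counts among the 24 without either. The split therefore cannot decide whether such elements sort the members by direction. All carriers except XBP1 belong to the chaperone branch, whose median in EZH2i was 0.48, so element and branch cannot be told apart in EZH2i.

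Other genes of these pathways, 121 in the table, were read in the same way. In CDK2i 2 were called higher and 1 lower of the 94 that could pass, against 3.27% and 8.07% of all genes able to pass. The median change was 0.08, beside −0.11 over all expressed genes. In EZH2i 6 were called higher and 1 lower of 97, against 8.93% and 4.42% of genes. The median there was 0.26, beside 0.19. These counts are no result about the lists, and single genes are described below. In CDK2i DDIT4, a stress-induced inhibitor of mTORC1, rose from 88 to 323 FPKM (log2 change 1.88, spread 0.62) against the direction of TRIB3 and SESN2, and ERO1L, the oxidase of the disulfide isomerases, rose from 23.9 to 49.6 (1.05). CNPY2, an ER protein of the saposin-like family, fell from 8.47 to 2.94 (−1.53). In EZH2i SPCS3, a subunit of the signal peptidase, rose by 1.17 and LMAN1, a cargo receptor for glycoproteins, by 1.13. The amino acid carriers SLC7A1 and SLC38A1 rose by 1.20 and 1.06, unlike the chains of LAT1, while NUPR1, a stress-induced chromatin protein, fell from 192 to 58.9 FPKM (−1.70). PPP1R15B, the constitutive partner of PPP1R15A, was at 8.83, 4.98 and 17.7 FPKM, and it passed the limits in EZH2i against both other tumors (1.00 and 1.83). SLC38A2 and BBC3, of the other ATF4 target and amino acid genes, passed them only between the inhibitors (1.85 and −1.40 in EZH2i against CDK2i). The 18 cytosolic tRNA synthetase genes in the table, many of them ATF4 targets, had medians of −0.01 and 0.30 and none was called. The 11 sensors, kinases and ATF6 proteases had medians of 0.17 and 0.68, the latter the highest of these lists in EZH2i.

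**Figure D4:**
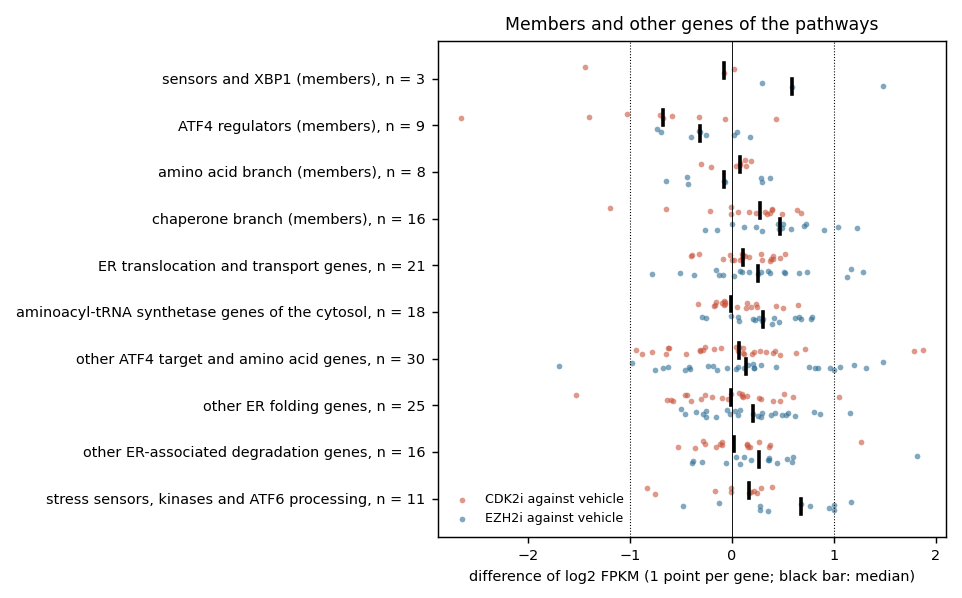
Difference of log2 FPKM from vehicle (horizontal axis), 1 point per gene, for the 4 groups of members and the 6 other gene lists in CDK2i (red) and EZH2i (blue), with medians as black bars and dotted lines at a 2-fold difference. The ATF4 regulators sit to the left in CDK2i (median −0.68), while the medians of the 6 other lists lie between −0.01 and 0.17 there and between 0.14 and 0.68 in EZH2i.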

How the data were processed

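RNA from 3 SUM-149 tumors, 1 library per group, was sequenced and, per the labels, processed with CASAVA and STAR on hg19 (GRCh37). Aligner settings, the counting tool and the treatment of mouse reads are not given in the sources used here. The authors deposited log2 FPKM per gene symbol, with −9 in place of an FPKM of 0. Differences were taken between these deposited log2 values without a pseudocount. Genes were called by fold (2) and expression (log2 FPKM 3), limits that the study states. The limma p-value of the study needs replicates and was not computed. The limit applies to the higher value of a pair. Other lists were read the same way, and of their called genes at most the 3 largest per list and comparison were named, while every member was named. XPOT passed the limits in EZH2i but is left out by that rule.

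Library size was taken from steps of low FPKM, where 71.9, 71.7 and 72.5% of values in vehicle, CDK2i and EZH2i came within 0.1 of a whole fragment. Counting intervals are exact conditional (Clopper-Pearson, 95%). Coordinates, lengths and GC content (longest coding transcript) come from GENCODE 44 on GRCh37, and promoter sequences from RefSeq tables, placed on GRCh37 by exact match. The trend over GC content and length was a polynomial of degree 3 in each. Scripts used Python 3.11, numpy 2.4.6, pandas 2.3.3 and scipy 1.17.1 and were tested on simulated data. The members and the lists were chosen with earlier results of these data known. Exons of 9 members overlap a protein-coding gene on the opposite strand (ATF5, DDIT3, SHMT2, SLC1A5, HSP90B1, CANX, PDIA3, PDIA6 and CRELD2). Alternatives covered fold and expression limits, pseudocounts, scaling and the trend.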

Additional observations from a re-analysis of the deposited data

How the results depend on the processing

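No paired analysis was possible because each condition has 1 library, and for the same reason no library could be left out. In CDK2i, EZH2i and EZH2i against CDK2i, 3, 1 and 3 members were called. The counts were 7, 7 and 6 at a fold limit of 1.5, 5, 3 and 6 both without an expression minimum and with a minimum of log2 FPKM 1, and 0, 0 and 1 with a minimum of 5. At a fold limit of 3 they were 0 in CDK2i and 0 in EZH2i against vehicle. The count in EZH2i was 0 after centring on the median expressed gene, 3 with equal summed FPKM and 0 with the trend over GC content and length removed. Without an expression minimum DDIT3 and SESN2 joined the lower genes in CDK2i, and ERN1 and SEL1L the higher genes in EZH2i.

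Centring moved every change by 0.18 in CDK2i and −0.25 in EZH2i, equal summed FPKM by 0.15 and 0.24, and equal sums without 87 ribosomal protein and 13 mitochondrially encoded genes by −0.15 and 0.04. In EZH2i the median of the chaperone branch was 0.23 centred and 0.72 with equal sums, that of the amino acid branch −0.32 and 0.17, and that of the ATF4 regulator group −0.56 and −0.07, or 0.09 with the trend removed. Of 432 values of single members under an alternative, 430 stayed within 1 spread of the value given. The exceptions were CEBPB, at 0.31, and SDF2L1, at 0.67, in EZH2i with the trend removed. With 1 library per condition, no setting stands in for replicates.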
